A study of Mus musculus with 47 samples.

Results

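Pleiotrophin (Ptn) and midkine (Mdk) are the pair of secreted, heparin-binding growth factors that make up the pleiotrophin family, and they were followed here with genes of 3 of their receptors, Ptprz1, Sdc3 and Lrp1. These 5 genes were chosen by name from the 56748 genes of the count table, with results of these libraries in view, so their differences between groups are described without p-values, and where the number of members past a threshold is given, it stands beside the share of all genes and nothing is read from it. In the B78-D14 melanoma, Ptn was the growth factor that was measured well: it was 3.58-fold higher in cultured cells with the m.11,944 mutation than in control cells, and it differed by less than the spread between tumors among m.12,436 and control tumors. Mdk gave 4 to 21 counts in a tumor, so its tumor comparisons rest on few counts, and at 0 to 4 counts in a culture it was not tested there. Ptprz1 gave at most 2 counts in any library and could not be compared between the mutant and control groups at this depth.

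The libraries were bulk RNA-seq of mouse B78-D14 cells, an amelanotic B16 derivative that is Cdkn2a-/- in every group, and of subcutaneous tumors grown from them. Truncating mutations had been placed in Mt-Nd5, a complex I gene of mitochondrial DNA (mtDNA), with mitochondrial base editors, and the percentage in a group's name is its heteroplasmy, the share of mtDNA copies that carry the mutation. The cultures were m.11,944 cells at 60% (n = 4) and control cells labelled wild type (n = 4). The tumors were m.12,436 tumors at 60% (n = 7), m.12,436 tumors at 40% (n = 7) and control tumors labelled wild type (n = 4). Per the labels no group was treated. The study's methods give the hosts as immunocompetent male C57BL/6 mice of about 8 weeks at injection, killed untreated at a size endpoint, and the sampled material as tumor fragments, so a tumor library holds host and tumor cells together. The study's reporting summary gives an older range of ages for the mice. Each edited line was an isogenic population made by transfection, so that, as far as the methods say, each mutant group rests on 1 edited line, and the mutation tested in the cultures was not the one tested in the tumors. Total counts ran from 16475735 to 36173502 a library. Nothing in the labels says that cultures came from separate thaws or lines, so the errors given for them cover the spread between these samples, which may be technical.

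The culture and tumor labels were checked against marker genes. Of 7 melanocyte genes, Mitf was measured at 17.6 CPM (counts relative to library size, scaled by the trimmed mean of M-values, TMM) in control cells, and the pigment enzyme gene Tyr was at 0 in all 4 of them, in a line labelled amelanotic. The other 5 were at or near 0 there, with means of 0.273 CPM for Dct, 0.253 CPM for Pmel, 0.121 CPM for Sox10, 0.0380 CPM for Mlana and 0.00985 CPM for Tyrp1, so of this list only Mitf was clearly measured in the cells. Summed over the list, control tumor 3 stood at 62.1 CPM, against 13.9 to 26.0 CPM in the other tumors. Ptprc, the pan-leukocyte gene, was at 0 in every control culture and between 47.8 and 90.3 CPM in control tumors. The 6 macrophage genes summed to 2.09 to 3.75 CPM in control cells and to 889 to 1114 CPM in control tumors. In bulk tissue, fewer cells of a type and less RNA per cell cannot be told apart.

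Pleiotrophin and midkine share a compact fold rich in basic residues, bind heparan and chondroitin sulfate chains, and are best known from developing brain, bone and repair. Ptprz1 is a receptor-type tyrosine phosphatase carried as a chondroitin sulfate proteoglycan; binding of pleiotrophin lowers its phosphatase activity, which leaves its substrates phosphorylated. Sdc3 (syndecan-3) is a membrane heparan sulfate proteoglycan that binds pleiotrophin in neural tissue. Lrp1 is a large endocytic receptor that takes up many ligands, midkine among them.

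In the cultures Ptn was high in all 4 m.11,944 60% cultures and low in all 4 control cultures. The gene (ENSMUSG00000029838) lies on the minus strand of chromosome 6 from 36680960 to 36796991 in GRCm39, and its exons cover 7546 bases that no other annotated gene shares. The m.11,944 60% cultures gave 120, 131, 56.7 and 68.2 CPM for replicates 1 to 4, from 2677, 3032, 1266 and 2130 counts. The control cultures gave 28.7, 28.8, 20.3 and 28.9 CPM, from 666, 680, 602 and 734 counts. The groups did not overlap: the lowest m.11,944 60% culture was above the highest control culture. The means were 94.0 ± 37.0 CPM and 26.7 ± 4.24 CPM (SD, n = 4 each), and the log2 fold change was 1.84 (SE 0.30). Over the 12930 genes tested in the cultures, 1.40% were higher in this way in every m.11,944 60% culture. Since the cultures took part in the choice of Ptn, nothing is read from its place among those genes.

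The size of the Ptn difference varied with the culture number. Cultures with the same number moved together across genes in the 2 groups, and the ratio of the m.11,944 60% culture to the control culture was 4.18 for number 1, 4.56 for number 2, 2.79 for number 3 and 2.36 for number 4. Within the m.11,944 60% cultures, numbers 1 and 2 averaged 126 CPM, 2.01 times the 62.5 CPM of numbers 3 and 4. The control cultures held 28.7 and 24.6 CPM for the same split. A fit that kept the culture number as a block gave a log2 fold change of 1.76 (SE 0.16). Of the 2 members tested in the cultures, Ptn and Lrp1, edgeR placed 0 among the 5 genes past an adjusted p of 0.1 (0.0387% of genes tested), while Ptn was among 84 genes called by DESeq2 (0.650%) and among 916 called by edgeR with the block (7.08%).

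**Figure D1:**
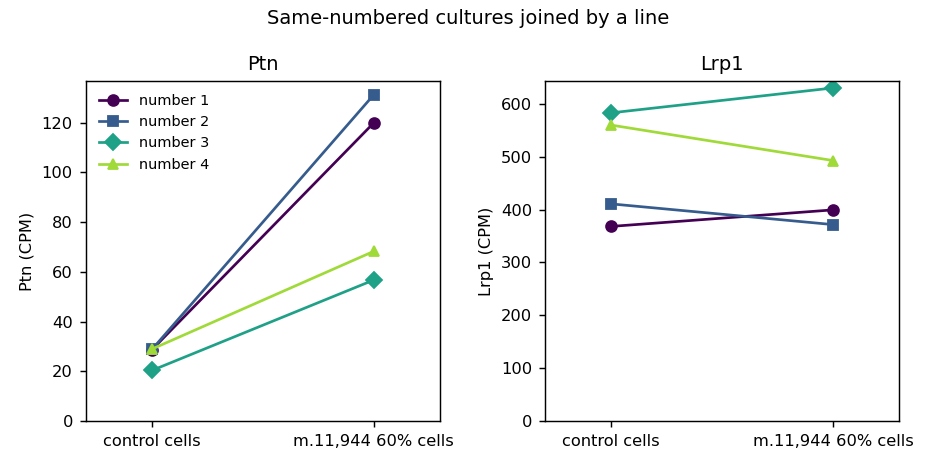
CPM of Ptn (left) and Lrp1 (right) on linear axes from 0 in 4 control cultures and 4 m.11,944 60% cultures, with a line joining cultures of the same number. All 4 Ptn lines climb, from 20.3 to 28.9 CPM up to 56.7 to 131 CPM, while 2 Lrp1 lines climb and 2 fall.

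Lrp1 in the same cultures showed no such separation. Lrp1 (ENSMUSG00000040249) lies on the minus strand of chromosome 10 from 127374012 to 127457017. The m.11,944 60% cultures gave 399, 372, 630 and 493 CPM and the control cultures 368, 411, 583 and 560 CPM, so the groups overlapped over most of their range. The means were 473 ± 117 and 480 ± 107 CPM (SD, n = 4 each), with a log2 fold change of -0.0042 (SE 0.21). What varied was the culture number. Numbers 3 and 4 were 1.46 times numbers 1 and 2 in the m.11,944 60% cultures and 1.47 times in the controls, the opposite order to Ptn in the edited cultures. The blocked value for Lrp1 was -0.0060 (SE 0.08).

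The other 3 members were near or at 0 in the cultures. Mdk gave 0, 0, 4 and 4 counts in the m.11,944 60% cultures and 0, 1, 3 and 2 counts in the control cultures. Sdc3 gave 0, 0, 3 and 2 counts and 0, 1, 7 and 0 counts in the same order. Ptprz1 gave 0 counts in all 8 cultures, which allows up to 3 counts a library, or 0.134 CPM in the shallowest culture. None of these 3 passed the filter on low counts there, and counts of this size cover counting error only.

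In the tumors Ptn was high in every group and did not separate them. The control tumors gave 221, 353, 235 and 245 CPM. The m.12,436 60% tumors ranged from 174 to 277 CPM with a median of 234 CPM, and the m.12,436 40% tumors from 60.3 to 430 CPM with a median of 267 CPM. The 40% tumors therefore covered a 7.14-fold range that held every control tumor and every 60% tumor, while control and 60% tumors covered 1.60-fold and 1.59-fold ranges. The means were 263 ± 60.6 (n = 4), 228 ± 40.0 (n = 7) and 250 ± 128 CPM (n = 7; SD). The log2 fold changes were -0.21 (SE 0.35) for 60% tumors against control tumors, -0.07 (SE 0.35) for 40% tumors against the same controls, and -0.13 (SE 0.30) for 60% against 40% tumors. All 3 were smaller than their standard errors. In a fit of the 60% and control tumors alone, the value was -0.21 with a smaller standard error, 0.15.

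The lowest and the highest Ptn levels among the 18 tumors belonged to m.12,436 40% tumors. Tumor 2 of that group held 60.3 CPM from 1355 counts and tumor 1 held 430 CPM from 11125 counts. Tumor 2 also had the lowest summed level of the 6 fibroblast genes, 7303 CPM, where the other 17 tumors lay between 9519 and 13164 CPM. Tumor 1 had 11158 CPM for that list, inside the range of the others. The highest gene of the list, Col3a1, averaged 7281 CPM in 40% tumors and 1497 CPM in control cells. The sum is therefore not a measure of host cells alone. The part of stromal content in the Ptn range was not tested.

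Sdc3 was the member whose groups stood furthest apart in the tumors. Sdc3 (ENSMUSG00000025743) lies on the plus strand of chromosome 4 from 130519826 to 130556217, and 5.24% of its exon bases lie under antisense long noncoding genes that gave 0 to 2 counts a library. The control tumors gave 118, 154, 122 and 153 CPM. The 60% tumors ranged from 147 to 227 CPM with a median of 198 CPM, and the 40% tumors from 117 to 175 CPM with a median of 147 CPM. In 5 of the 7 60% tumors the level was above every control tumor, and in 5 of 7 it was above every 40% tumor, but the ranges overlapped in both cases. The means were 137 ± 19.0, 190 ± 33.8 and 144 ± 21.5 CPM (SD) for control, 60% and 40% tumors. The log2 fold change was 0.48 (SE 0.14) for 60% against control tumors, 0.40 (SE 0.12) for 60% against 40% tumors and 0.08 (SE 0.14) for 40% against control tumors. The first 2 of these share the 60% tumors and the first and the last share the controls.

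Leukocyte and macrophage genes were set beside Sdc3, and none of them passed the threshold in 60% against control tumors. Ptprc ranged from 76.7 to 143 CPM in them, from 47.8 to 90.3 CPM in control tumors and from 51.6 to 96.3 CPM in 40% tumors. The 6 macrophage genes summed to 753 to 1329 CPM in 60% tumors, 889 to 1114 CPM in control tumors and 900 to 1130 CPM in 40% tumors, and 4 of the 6 had a positive log2 fold change in 60% against control tumors (median 0.13). The macrophage gene Mrc1 went the other way, at 75.1 CPM on average in 60% tumors and 130 CPM in control tumors. The groups overlapped in both measures. All 5 T and NK cell genes also had positive fold changes in that comparison, with 0 past the threshold. The 60% tumors with the lowest Sdc3, tumors 5 and 6 at 147 and 148 CPM, held 78.3 and 76.7 CPM of Ptprc, the lowest of their group. None of the macrophage genes was at 0 in all tumors of any group. The part of leukocyte content in the Sdc3 difference was not tested.

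Lrp1 had the highest level per length of the 5 members in every tumor, and it did not separate the groups. The control tumors gave 1104, 1158, 1676 and 2112 CPM, the 60% tumors 1344 to 1982 CPM with a median of 1550 CPM, and the 40% tumors 1315 to 1610 CPM with a median of 1498 CPM. The control tumors alone spanned the whole range, and both mutant groups lay inside it. The means were 1513 ± 475, 1602 ± 226 and 1467 ± 118 CPM (SD). The log2 fold changes were 0.08 (SE 0.14), -0.04 (SE 0.14) and 0.13 (SE 0.12) for 60% against control, 40% against control and 60% against 40% tumors.

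Mdk was detected in every tumor, on few counts. The gene (ENSMUSG00000027239) lies on the minus strand of chromosome 2 from 91760143 to 91762846. The control tumors gave 12, 13, 14 and 16 counts, the 60% tumors 4 to 21 counts and the 40% tumors 5 to 19 counts. The means were 0.508 ± 0.130, 0.440 ± 0.192 and 0.432 ± 0.171 CPM (SD), and the log2 fold changes were -0.18 (SE 0.35) for 60% against control tumors, -0.21 (SE 0.35) for 40% against control tumors and 0.03 (SE 0.31) for 60% against 40% tumors. A processed pseudogene, Mdk-ps1, shares at most 51 identical bases in a row with an Mdk transcript and gave 4 counts in the 26 libraries together. How many reads the pair shared was not measured, so the Mdk counts are uncertain to that extent.

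Ptprz1, the receptor by which pleiotrophin is best known in the nervous system, was not detected as an expressed gene. It gave 0 counts in the 4 control tumors, 2 counts in 1 and 1 count in another of the 60% tumors, and 2 counts in 1 of the 40% tumors. A library at 0 allows up to 3 counts, or 0.166 CPM in the shallowest tumor. The gene (ENSMUSG00000068748) lies on the plus strand of chromosome 6 from 22875358 to 23054236.

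**Figure D2:**
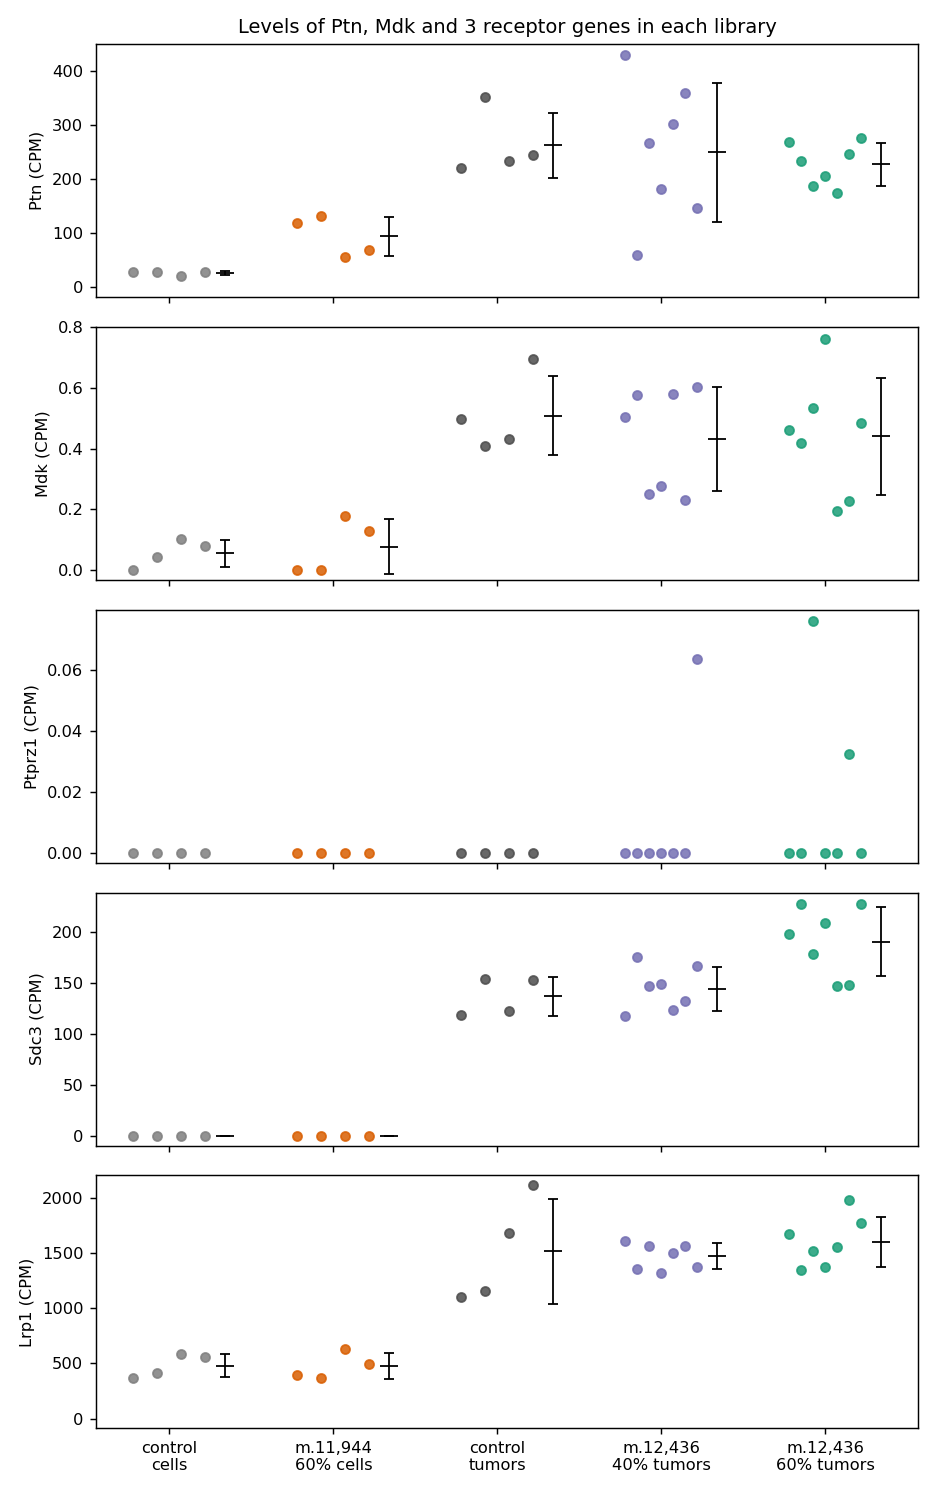
CPM of the 5 members in each of the 26 libraries, 1 panel a gene with a linear axis, and the mean ± SD beside each group (not drawn for Ptprz1). Ptn separates the m.11,944 60% cells from the control cells and spreads from 60.3 to 430 CPM in the 40% tumors, and Sdc3 is near 0 in all cultures and at 117 to 227 CPM in all tumors.

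In the tumor comparisons edgeR placed 0 of the 4 members it tested past an adjusted p of 0.1, against 2.31% of all genes for 60% against control tumors, 0% for 40% against control tumors and 1.81% for 60% against 40% tumors. The call of Sdc3 depended on the fit. DESeq2, which called 1056 genes for 60% against control tumors where edgeR called 374, placed Sdc3 among them (7.21% of genes with an adjusted p), as did edgeR on those 2 groups alone (943 genes, 5.97%). For 60% against 40% tumors DESeq2 placed Sdc3 among 744 genes (4.59%) where edgeR called 293, while edgeR on those 2 groups alone did not call it. With 1 surrogate variable (a hidden source of variation estimated from the counts) as a covariate, edgeR placed Sdc3 past the threshold in both comparisons, at log2 fold changes of 0.49 and 0.48, where 4.25% and 3.97% of all genes passed. For 40% against control tumors edgeR called 0 genes and DESeq2 5. By edgeR 825 of 16213 genes had an unadjusted p under 0.05, near the share that chance alone gives.

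**Figure D3:**
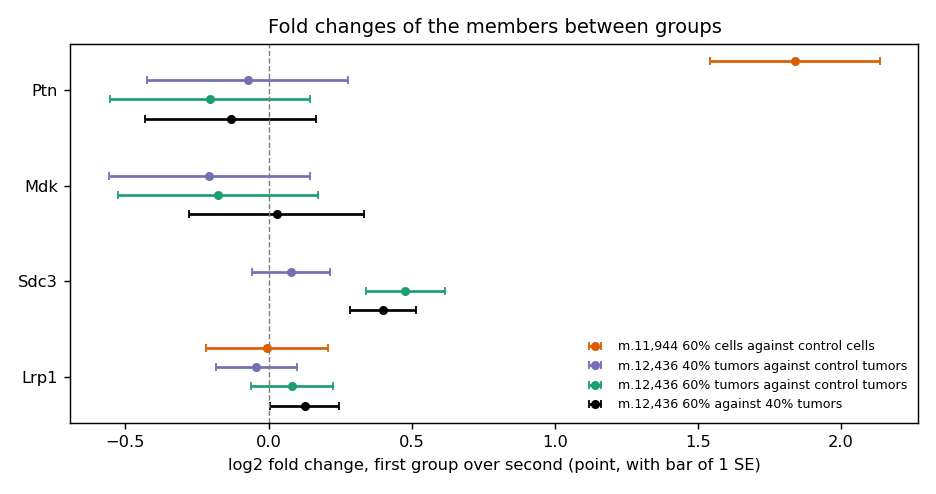
Log2 fold changes of Ptn, Mdk, Sdc3 and Lrp1 (points) with 1 SE (bars) for 4 comparisons, Mdk and Sdc3 not fitted in the cells and Ptprz1 not fitted at all. Ptn in the m.11,944 60% cells lies at 1.84, and every tumor value lies between -0.21 and 0.48.

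Control tumors and control cells differed in all 4 members that could be tested, each higher in the tumors, in a comparison where 65.2% of the 15047 genes tested passed the threshold, 35.3% did so as higher in the tumors, and 30.5% were higher in every tumor than in every culture. Ptn rose from 26.7 ± 4.24 to 263 ± 60.6 CPM, a log2 difference of 3.36 (SE 0.20). Its level was thus above that of the m.11,944 60% cells as well, whose highest culture (131 CPM) lay below the lowest control tumor (221 CPM). Lrp1 went from 480 to 1513 CPM, a log2 difference of 1.72 (SE 0.25). Sdc3 went from 8 counts in 4 cultures to 15230 counts in 4 tumors, a ratio of counts per library size of 1741 (95% interval 883 to 4033, counting error only). Mdk went from 6 to 55 counts, a ratio of 8.38 (3.62 to 23.8 on the same footing). For Sdc3, 7 of the 8 cell counts came from control culture 3, and without that culture its log2 difference moved from 10.76 to 12.88. The markers of leukocytes, macrophages, fibroblasts, pericytes and endothelial cells were higher in the tumors in 1 of 1, 6 of 6, 6 of 6, 5 of 5 and 6 of 6 cases. Host cells and growth in the animal cannot be told apart in this comparison.

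Per length the order of the members' means was the same in all 3 tumor groups. In control tumors Lrp1 stood at 73.8 ± 23.2 RPKM (CPM per kilobase of exon), Ptn at 34.9 ± 8.03 RPKM, Sdc3 at 15.5 ± 2.15 RPKM and Mdk at 0.301 ± 0.0772 RPKM, with Ptprz1 at 0 (SD, n = 4). No neighbours in this order overlapped among the control tumors, whereas in 40% tumor 2 Ptn (7.99 RPKM) lay below Sdc3 (19.8 RPKM). In control cells Lrp1 stood at 23.4 ± 5.22 RPKM and Ptn at 3.54 ± 0.562 RPKM, and in m.11,944 60% cells Lrp1 at 23.1 ± 5.69 RPKM and Ptn at 12.5 ± 4.91 RPKM. Mdk and Sdc3 were below 0.05 RPKM on average in the cultures, on at most 7 counts a library. Across groups, the Ptn level ran from control cells through m.11,944 60% cells to 60% tumors, 40% tumors and control tumors. The neighbours among the last 3 did not differ beyond their spread, and the 40% tumors reached down to 60.3 CPM, within the range of the m.11,944 60% cells.

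The genes whose levels followed Ptn most closely were sought over the 18 tumors, after subtracting each group's mean on the log2 scale, among 12196 genes. The 5 highest correlations (Pearson's r) were with Csad (0.92), an enzyme of taurine synthesis, the fibril-associated collagen gene Col16a1 (0.91), Rcbtb2 (0.89), the secreted matrix gene Spon2 (0.89) and Lrig1 (0.89), a membrane protein that restrains ErbB receptors. The 3 lowest were Psme3 (-0.91), a proteasome activator, and the cholesterol synthesis enzymes Mvd (-0.87) and Msmo1 (-0.87). These are descriptions, since the genes were picked as extremes and all points share the same libraries and scaling. Tumor 2 of the 40% group weighed on them: it held 21.5 CPM of Csad, 4.76 CPM of Spon2, 88.6 CPM of Mvd and 101 CPM of Msmo1, where tumor 1, with the highest Ptn, held 37.0, 73.8, 26.5 and 41.4 CPM. Without tumor 2 the correlations were 0.85 for Csad, 0.87 for Col16a1, 0.80 for Rcbtb2, 0.77 for Spon2 and 0.75 for Lrig1, and -0.79 for Psme3, -0.67 for Mvd and -0.67 for Msmo1.

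**Figure D4:**
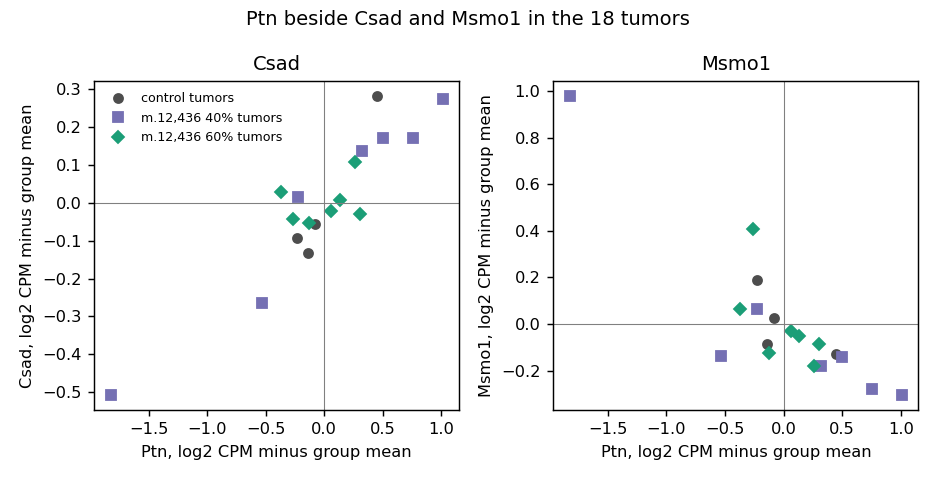
Ptn (x axis) against Csad (left) and Msmo1 (right) in 18 tumors, each as log2 CPM minus the mean of the tumor's group, with symbols by group. The tumor at the far left of both panels is 40% tumor 2, and Csad rises with Ptn (r = 0.92) while Msmo1 falls (r = -0.87).

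For Mdk the same search gave weaker correlations on sparse counts. The highest were with Ggct (0.74), Armc5 (0.72), Gatm (0.72), Ltbp2 (0.72) and Ptpn7 (0.71), and the lowest with Aldh3a2 (-0.82), Rbm18 (-0.80) and Zfp937 (-0.78). With 4 to 21 counts of Mdk a tumor, no weight can be put on these.

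No pair of members passed an adjusted p of 0.1 in the permutation test of their correlation over the tumors. Counts of Ptprz1 and Mdk were too low for their pairs to show much, though these pairs entered the adjustment. Of 10 pairs, the largest correlation of within-group deviations was between Mdk and Sdc3 (r = 0.470, rho = 0.457, n = 18 tumors), with a permutation p of 0.0753 for r and 0.0819 for rho (100000 resamples within groups, two-sided) and adjusted values of 0.509 and 0.359 over the 10 pairs. Without the 2 tumors farthest out in Mdk it was 0.209. Ptn and its receptor genes gave r = -0.349 (rho = -0.193) with Sdc3 and r = 0.236 (rho = 0.352) with Lrp1, with permutation p of 0.153 and 0.149 for r and 0.459 and 0.108 for rho (adjusted 0.509, 0.509, 0.769 and 0.359). Without the 2 tumors farthest out in Ptn these were 0.028 and 0.174, so the value for Sdc3 rests on those tumors.

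Around the members, 92 further genes of the pathway in 5 lists were tested in the same fits, adjusted over all genes. In 60% against control tumors, 3 of the 85 tested passed, all higher, where 2.31% of all genes passed (156 higher and 218 lower). Agrn encodes agrin, a heparan sulfate proteoglycan that binds pleiotrophin. It ranged from 112 to 207 CPM in control tumors and from 241 to 295 CPM in 60% tumors (log2 fold change 0.68, SE 0.12, adjusted p = 0.0114, edgeR). Xylt1, the xylosyltransferase that starts heparan and chondroitin sulfate chains, went from 12.8 ± 1.56 to 17.5 ± 1.31 CPM (0.45, SE 0.11, adjusted p = 0.0614, edgeR). Pdgfb, a heparin-binding growth factor for pericytes and fibroblasts, ranged from 29.9 to 38.7 CPM in control tumors and from 40.1 to 52.5 CPM in 60% tumors (0.47, SE 0.12, adjusted p = 0.0715, edgeR). By list, 1 of 21 other receptors and partners, 0 of 11 ligands and substrates of Ptprz1, 0 of 11 ligands, chaperone and adaptors of Lrp1, 1 of 30 sulfate chain enzymes and 1 of 12 other heparin-binding growth factors passed. The list medians were 0.12, -0.05, 0.10, 0.08 and 0.08, beside -0.0025 over all genes tested.

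In the lists with no call, the smallest p-values belonged to Tnc, a matrix ligand of Ptprz1 (0.86, SE 0.29, adjusted p = 0.154), its substrate Magi1 (-0.26, SE 0.09, adjusted p = 0.156), Plau, a protease cleared by Lrp1 (0.64, SE 0.19, adjusted p = 0.118), and the Lrp1 ligand Calr (-0.19, SE 0.09, adjusted p = 0.311), all by edgeR. Agrn was called under all 8 other settings and with any of the 11 tumors left out. The calls of Xylt1 and Pdgfb held in 5 and 4 of the 11 fits with a tumor left out, and their fold changes stayed between 0.40 and 0.54. Of the 8 other settings, Xylt1 lost its call under the replicate block and Pdgfb without a filter on low counts.

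In 60% against 40% tumors, 4 of the 85 passed, again all higher, where 1.81% of all genes passed (132 higher and 161 lower). Pdgfb went from 31.9 ± 5.45 to 46.9 ± 4.60 CPM (0.56, SE 0.10, adjusted p = 0.0157, edgeR), and Xylt1 from 13.1 ± 2.12 to 17.5 ± 1.31 CPM (0.41, SE 0.10, adjusted p = 0.0494, edgeR). Glce, the epimerase that makes iduronic acid in heparan sulfate, went from 37.1 ± 2.99 to 44.8 ± 2.93 CPM (0.27, SE 0.07, adjusted p = 0.0857, edgeR). Tgfb1, a growth factor that binds heparan sulfate, went from 113 ± 8.08 to 131 ± 7.00 CPM (0.22, SE 0.06, adjusted p = 0.0841, edgeR). The call of Pdgfb held with any of the 14 tumors left out and that of Xylt1 in 11 of 14, while those of Glce and Tgfb1 held in 3 of 14 each and were also lost without a filter and with 1 surrogate variable. Agrn had a log2 fold change of 0.33 (SE 0.10) and an adjusted p of 0.135 (edgeR). The receptor list and those of Ptprz1 and Lrp1 had no call; next to Agrn stood Itga6 (-0.33, SE 0.10, adjusted p = 0.135), Magi1 (-0.26, SE 0.08, adjusted p = 0.124), Tnc (0.48, SE 0.24, adjusted p = 0.379), Plau (0.44, SE 0.16, adjusted p = 0.205) and Lrpap1, the chaperone of Lrp1 (0.15, SE 0.06, adjusted p = 0.249), by edgeR.

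In 40% against control tumors 0 of the 85 passed (edgeR, and DESeq2 likewise). The smallest p-values by list belonged to Agrn (0.35, SE 0.12), Cspg5 (-0.88, SE 0.35), L1cam (-0.57, SE 0.23), Nrcam (-1.94, SE 0.79), Calr (-0.18, SE 0.09), Plau (0.20, SE 0.18), Chst12 (-0.12, SE 0.05), Hs6st1 (0.20, SE 0.10), Hgf (0.62, SE 0.33) and Fgf7 (0.22, SE 0.18), with adjusted p from 0.924 to 0.953 by edgeR. The 60% tumors and the 40% tumors were set against the same 4 control tumors.

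**Figure D5:**
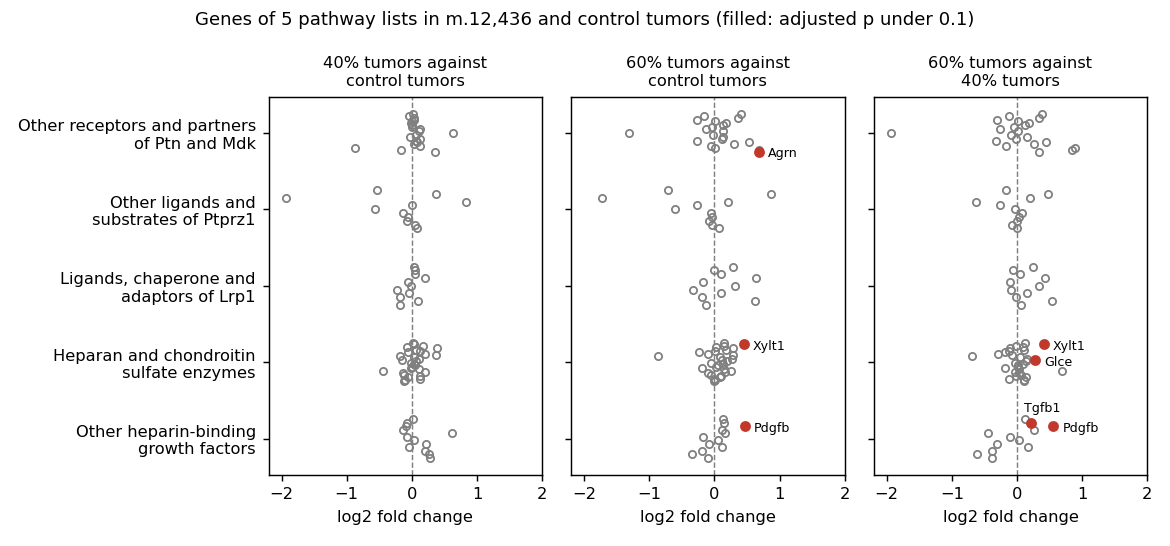
Log2 fold changes of the tested genes of 5 pathway lists (1 point a gene) in 3 tumor comparisons, filled and named where the adjusted p by edgeR was under 0.1. The 3 named genes of the middle panel and the 4 of the right panel all lie above 0, and the left panel has none.

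In the cultures DESeq2 called 1 pathway gene, where 0.650% of all genes passed. EdgeR with 1 surrogate variable called 12, where 805 of 12930 genes passed. Without that variable, edgeR placed 0 of 68 past the threshold without the block and 10 with it, where 0.0387% and 7.08% of all genes passed. Without it the smallest p-values by list belonged to Itga6 (-0.68), Lrp2 (-0.69), L1cam (0.90), Il34 (-0.15), Mmp13 (-0.78), Thbs1 (0.45), Hs2st1 (-0.27), Xylt2 (0.31), Cxcl12 (-0.54) and Hbegf (-0.89), all at an adjusted p of 1 by edgeR. In the blocked fit Csgalnact1, which starts chondroitin chains, was lower (-0.53, SE 0.09, adjusted p = 0.0168, edgeR), as were the chain-modifying enzymes Hs2st1 (-0.27, SE 0.06, adjusted p = 0.0591, edgeR) and Chst11 (-0.37, SE 0.10, adjusted p = 0.0778, edgeR). Nrp1, a co-receptor also reported for pleiotrophin, was higher (0.59, SE 0.10, adjusted p = 0.0185, edgeR), with L1cam (0.92), Thbs1 (0.43) and Xylt2 (0.31), at adjusted p of 0.0840, 0.0803 and 0.0663 by edgeR. Itga6 (-0.58) and Mmp13 (-0.75) were lower, at adjusted p of 0.0850 and 0.0901 by edgeR. By list the calls were 1 higher and 1 lower of 16 receptors and partners, 1 higher of 8 for Ptprz1, 1 higher and 2 lower of 9 for Lrp1, 1 higher and 3 lower of 25 enzymes, and 0 of 10 growth factors, where Cxcl12 (-0.53, adjusted p = 0.121) and Hbegf (-0.73, adjusted p = 0.129) came next by edgeR. The list medians ran from -0.23 to -0.01.

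Between control tumors and control cells most pathway genes differed, as most genes did. Of 20 other receptors and partners 8 were higher and 4 lower in the tumors, of 10 ligands and substrates of Ptprz1 7 and 2, of 11 ligands, chaperone and adaptors of Lrp1 9 and 0, of 29 sulfate chain enzymes 14 and 4, and of 12 growth factors 7 and 4. The genes named here are the up to 4 with the smallest p in each direction, with adjusted p from 1.77e-07 to 0.0974 by edgeR and each level given as tumors against cells.

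Among the receptors and partners, the integrin genes Itgb3 (18.3 against 0.0685 CPM) and Itga4 (14.9 against 0.0359 CPM), the proteoglycan gene Cspg4 (8.07 against 0.0183 CPM) and Agrn (165 against 61.9 CPM) were higher in the tumors. Ncl, the nucleolin gene, a reported low-affinity partner of both growth factors, was lower (1115 against 2652 CPM), as were the integrin gene Itga6 (251 against 613 CPM) and the syndecan genes Sdc1 (155 against 202 CPM) and Sdc4 (198 against 251 CPM). Sdc3 was thus near 0 in cells that held Sdc1 and Sdc4 at over 200 CPM. For Ptprz1, the matrix ligand Tnc (172 against 0.825 CPM), Il34 (23.4 against 12.5 CPM) and the adhesion genes L1cam (7.95 against 0.996 CPM) and Nfasc (0.961 against 0 CPM) were higher, and Fyn (57.9 against 141 CPM) and Arhgap35 (133 against 182 CPM) lower.

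The Lrp1 ligands Apoe (1088 against 0.885 CPM), Mmp9 (93.8 against 0.132 CPM), C3 (51.5 against 0.0409 CPM) and Thbs1 (132 against 32.1 CPM) were higher in the tumors. Among the sulfate chain enzymes, Chst11 (142 against 31.4 CPM), Sulf1 (8.89 against 0 CPM), Chst3 (0.977 against 0.0734 CPM) and Xylt2 (48.5 against 27.3 CPM) were higher, and Hs2st1 (135 against 215 CPM), Csgalnact2 (43.6 against 87.0 CPM), Glce (41.4 against 134 CPM) and Hs6st1 (144 against 179 CPM) lower. Among the other growth factors, Pdgfb (33.9 against 0.0204 CPM), Hgf (7.68 against 0.0420 CPM), Fgf1 (6.48 against 0.578 CPM) and Cxcl12 (85.0 against 16.4 CPM) were higher, and Fgf7 (56.4 against 178 CPM), Hdgf (528 against 974 CPM), Areg (28.3 against 124 CPM) and Hbegf (27.1 against 54.2 CPM) lower. Levels near 0 in the cells rest on few counts.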

How the data were processed

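The deposited values are counts of reads per gene in 1 table of 56748 genes, which the authors made by aligning reads to GRCm39 with STAR and counting with featureCounts. The strand setting is not given in the sources used here, nor is how reads that map to several places were counted. Of 47 columns, 26 were matched to samples by name and 21 were not used. The control, 54, low and high column names were matched to groups with the help of the study's own headings.

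Counts were scaled to CPM with TMM over the 26 libraries. Each comparison was fitted with edgeR 4.0.16 quasi-likelihood tests (R 4.3.3), with filterByExpr, in all tumor groups together for tumors, at a Benjamini-Hochberg adjusted p of 0.1. The SE is the log2 fold change divided by the square root of its F. Log2 CPM for correlations used a prior count of 2 and genes at a mean of at least 1. Alternatives were limma-voom (limma 3.58.1), DESeq2 1.42.0, its size factors, other filters, a threshold of 0.05, 1 surrogate variable (sva 3.50.0), a block and left-out samples. Scripts were tested on simulated data.

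Cultures of the same number correlated at 0.79 to 0.89 in their deviations from group means in all 4 pairs (-0.29 on average between different numbers), so the number was taken as a pairing and the blocked value is given beside results it changes. Tumor numbers, at -0.35 to 0.20, were not. No pair of libraries of the same group was alike within counting noise. Symbols came from GENCODE, for 56017 genes.

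The members, gene lists and marker lists were chosen with earlier results of these data known. From each list, genes past the threshold were named (up to 4 of the smallest p in each direction), or the 2 with the smallest p where none passed, and likewise the 5 highest and 3 lowest correlations with Ptn and Mdk. The values of 1 listed gene are not reported here, though list counts include it.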

Additional observations from a re-analysis of the deposited data

Results flagged for a closer look

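In the control cells the lowest Ptn value, replicate 3 at 20.3 CPM, lay far from the other 3, which fell between 28.7 and 28.9 CPM: the gap to the nearest took up 0.973 of the group's range, above Dixon's critical value for 4 samples. The same-numbered m.11,944 60% culture also had the lowest Ptn of its group, 56.7 CPM. Without that control culture the log2 fold change of Ptn was 1.72 (SE 0.32). In all, 16 groups of member values were examined in this way, and chance alone marks about 1 in 20. The cause was not tested.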

How the results depend on the processing

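The log2 fold change of Ptn in the cultures lay between 1.76 and 1.84 under 7 other settings and between 1.63 and 2.02 with a culture left out. Sdc3 in 60% tumors lay between 0.42 and 0.58 against control tumors and between 0.35 and 0.48 against 40% tumors. In the tumors, the Ptn, Mdk and Lrp1 changes were all within about 1 SE of 0 in the edgeR fit of all tumor groups together. Signs of most of them turned under some settings, such as Ptn in 60% against 40% tumors (0.07 with limma-voom). Those of Ptn in 60% and Mdk in 40% against control tumors did not turn. Lrp1 in 60% against control tumors reached 0.29 (SE 0.13) without control tumor 4. Control tumors against control cells moved for Sdc3, from 10.76 to 12.88 without control culture 3. Ptn per length moved from 9.87 to 13.4 times in TPM. The Lrp1 means of control cells and control tumors also stood further apart in TPM (86.2 and 366) than in RPKM (23.4 and 73.8).

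Counts of genes past the threshold depended on the fit, and the cause was not tested. In the cultures, 5 genes became 84 with DESeq2, 0 at 10 or more counts in every sample, 916 with the replicate block and 805 with 1 surrogate variable. For 60% against control tumors, 374 became 1056 with DESeq2, 943 with only those groups, 689 with 1 surrogate variable and 150 at an adjusted p of 0.05. For 40% against control tumors, 0 became 5 with DESeq2. For 60% against 40% tumors, 293 became 744 with DESeq2, 178 without a filter, 643 with 1 surrogate variable and 113 at 0.05. Leaving out 1 library gave 0 in the cultures in each case, 66 (without control tumor 3) to 717 (without control tumor 2), 0 to 3, 108 (without 60% tumor 1) to 452 (without 40% tumor 4) and, for control tumors against control cells, 8921 to 10530. A block by tumor number, which the data did not bear out as a pairing, gave 275, 0 and 266 genes in the tumor comparisons, and Sdc3 was among them for both comparisons of 60% tumors (0.58 and 0.39). In the fits with a tumor left out, Sdc3 passed in 4 of 11 for 60% against control tumors and in 3 of 14 for 60% against 40% tumors. The correlations of member pairs kept their sign with a prior count of 0.25 and with DESeq2 size factors. The correlations without 40% tumor 2 were added after the data had been seen. At this depth Ptprz1 could not be compared between mutant and control groups, nor Mdk in the cultures. In the tumors the comparisons of Mdk rest on few counts.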
